A study of Homo sapiens with 4 samples.

Results

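The cyclins, cyclin-dependent kinases (CDKs) and CDK inhibitors were examined in DaroR cells after knockdown of the long non-coding RNA LOC730101. Members were taken by name, as every row of the count table with a symbol of the form CCN plus 1 or 2 letters and at most 1 digit, a symbol of the form CDK plus a number with an optional A or B, or 1 of the 7 inhibitor symbols CDKN1B, CDKN1C, CDKN2A, CDKN2B, CDKN2C, CDKN2D and CDKN3. The rule used no measured value. It found 69 of the 60606 genes of the table, with 41 cyclin names, 21 kinase names and 7 inhibitor names, of which 57 were protein coding and 12 were pseudogenes. The expression filter of edgeR kept 54 of them, 53 of them protein coding, among 19349 genes tested.

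The cells were LNCaP-DaroR, a line derived from the prostate cancer line LNCaP by raising the antiandrogen darolutamide to 10 μM and then keeping the cells at that concentration for 12 months. All 4 libraries therefore came from cells selected in darolutamide, and parental cells were not analysed here. In siControl, 2 libraries came from cells transfected with control siRNA, and in siLOC730101, 2 libraries came from cells transfected with a pool of siRNAs against LOC730101, both at 20 nM. The labels name 2 replicates per group and do not say whether these were separate cultures, so that the p-values measure only the spread between these samples, which may be technical. Polyadenylated RNA was sequenced, and the deposited values are raw counts per gene.

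The libraries held 39213498 to 53368158 counts, and the siLOC730101 totals averaged 80.4% of the siControl totals. LOC730101, listed by its Ensembl identifier ENSG00000216775, fell from 2560 and 2370 counts (siControl) to 633 and 680 (siLOC730101), with an edgeR adjusted p of 4.34e-06. Its mean normalized CPM (counts scaled by the library size and the TMM factor) fell from 49.0 to 16.7, a reduction of 66.0%. The knockdown was therefore partial. The luminal prostate markers KLK3, KLK2, TMPRSS2, FOLH1, KRT8, KRT18 and EPCAM were detected in every library, KLK3 with a normalized CPM of 1820 and 1487 in siControl and 1753 and 1916 in siLOC730101. The basal markers KRT5 and TP63 and the leukocyte markers PTPRC and CD3E were at 0 in all libraries, as were COL1A2 and LUM among the stromal markers and CHGA and INSM1 among the neuroendocrine markers. Other members of these lists were detected, with 0.195 to 0.632 normalized CPM for the basal marker KRT14, 11.0 to 14.7 for COL1A1 and 2.86 to 3.87 for COL3A1 among the stromal markers, and 2.09 to 2.95 for the neuroendocrine marker SYP. The leukocyte marker CD68 had at most 1 count in a library, and the stromal marker DCN at most 2 counts.

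Most CDKs become active when a cyclin binds them, CDK5 being activated by other proteins, and the cyclins owe their name to the rise and fall of some of them through the cell cycle. D-type cyclins with CDK4 or CDK6 start the phosphorylation of the retinoblastoma protein, E-type and A-type cyclins with CDK2 carry the cell into and through DNA replication, and B-type cyclins with CDK1 drive mitosis. INK4 proteins hold CDK4 and CDK6 inactive, and CIP/KIP proteins bind whole cyclin-CDK complexes. A further branch of the family, with CDK7, CDK8, CDK9, CDK11, CDK12 and their cyclins, acts on RNA polymerase II and RNA processing. After LOC730101 knockdown, the paper lists CDK9 and CDK14 as significantly lower by RNA sequencing. By RT-qPCR it reports significant changes of CDK6, CDK9 and CDK14. The study asked whether LOC730101 controls the expression of cell cycle genes through the microRNA miR-1-3p.

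The sequence that links the members to that question is mature miR-1-3p, printed as RefSeq (GRCh38.p14) gives it, with the seed at bases 2 to 8 in capitals. It is encoded on the plus strand at chr20:62554351-62554372 (MIR1-1) and on the minus strand at chr18:21829015-21829036 (MIR1-2).

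hsa-miR-1-3p: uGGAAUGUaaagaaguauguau

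The 3′ UTRs of 53 tested members were searched in a GRCh37 annotation (gencode 44 lifted to that build), with 1 transcript for each gene. Matches of 7 or 8 bases were counted as ACATTCC (7mer-m8, pairing with bases 2 to 8), CATTCCA (7mer-A1, pairing with bases 2 to 7 before an A) and ACATTCCA (8mer, which holds both). Of the 53 members, 9 held at least 1 such match, 17.0% against 22.1% of the 13538 protein-coding genes searched in the same way. An 8mer was found in 3 members (5.66% against 5.36% of all genes). The windows printed here belong to CCND1, to CDKN2B and to 4 of the 6 kinases with a match, each read 5′ to 3′ on the strand of the gene in the 3′ UTR exon, with the match in capitals.

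CCND1, chr11:69467033-69467056, plus strand: tcttcatattctaaaacCATTCCA

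CDK4, chr12:58142160-58142183, minus strand: ctttgctgccttaatgACATTCCc

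CDK6, chr7:92235488-92235511, minus strand: atcaagaatataaaccACATTCCA

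CDK2, chr12:56366059-56366082, plus strand: agacagggattgtgcttCATTCCA

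CDK19, chr6:110933144-110933167, minus strand: acatagccagaaatctcCATTCCA

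CDKN2B, chr9:22005718-22005741, minus strand: tatttaggagtgtgtgACATTCCA

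These windows show the same 6-base core, CATTCC, in each of the 6 genes, and the site types differ in which of its flanks also pairs. CDKN2B, the inhibitor p15, holds a second match, a 7mer-A1, at position 1974 of its 3′ UTR of 3084 nucleotides. CCNC, CDK9 and CDK14, the last with 2 8mers, are the other members with a match. In CCNC the core CATTCC starts at nucleotide 3 of the 3′ UTR. A match is a description of the sequence and no measure of binding.

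Promoters of the B-type cyclins and of CDK1 are known to hold the cell cycle genes homology region (CHR) with CCAAT boxes. The promoters of 49 tested members were found in RefSeq (GRCh38.p14), from 250 bases before to 50 bases after the start. On either strand, TTTGAA was found in 8 of them (16.3% against 18.2% of 27305 genes) and CCAAT in 22 (44.9% against 39.7%). The 27305 genes are all those with a promoter in this reference, whether or not they passed the expression filter. The shares in this paragraph therefore set tested members against an unlike set. Both were found in 1 promoter of 6 members (12.2% against 7.26%), namely CCNB2, CCNC, CCNF, CDK1, CDK19 and CDKN3. CCNB1 held CCAAT but no TTTGAA in this window. The E2F site TTTCGCGC was found in 3 members, CCNO, CDK1 and CDK10 (6.12% against 0.63%), and TTTGGCGC and TTTCCCGC in 1 member each (0.795% and 1.98% of the 27305 genes). The E2F strings differ in their middle bases and none holds TTTGAA or CCAAT. The stretches of CCNB2 and CCNF printed here end before the annotated start and have the CCAAT boxes and TTTGAA in capitals.

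CCNB2, chr15:59105016-59105125, plus strand: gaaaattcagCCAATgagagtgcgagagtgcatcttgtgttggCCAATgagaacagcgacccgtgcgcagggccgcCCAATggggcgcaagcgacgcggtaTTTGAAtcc

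CCNF, chr16:2429284-2429393, plus strand: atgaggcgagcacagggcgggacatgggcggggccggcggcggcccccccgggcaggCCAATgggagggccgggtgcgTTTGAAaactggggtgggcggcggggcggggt

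In both stretches TTTGAA lies downstream of the last CCAAT box. Its first base lies 29 bases before the RefSeq start in CCNB2 and 85 bases before it in CCNF.

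The levels of the members were compared per kilobase of exon, as normalized CPM divided by the exon length that the table gives. CCNI, a cyclin that is abundant in many tissues and is not tied to a cell cycle phase, stood highest, with 280 and 292 normalized CPM per kilobase in the siControl libraries. CCNG1, a cyclin known from the response to DNA damage, followed with 75.5 and 70.9. CCND1, the D-type cyclin of many carcinomas, had 50.7 and 50.4, and CDK1, the mitotic kinase, had 47.5 and 50.8. The ranges of CCND1 and CDK1 overlapped, while those of CCNI, CCNG1 and CCND1 were apart from each other. CCNB1, the Mediator kinase CDK19, the PCTAIRE kinase CDK16 and CDK4 came next, at a mean of 36.0, 32.4, 25.5 and 24.1 per kilobase. The lowest tested members were CCNJ, CCNP, CDK3, CCNO and CCNI2, all under 0.350 per kilobase in the siControl mean. Of the 53 pairs of neighbours in this order, 25 had siControl ranges that overlapped. The order in siLOC730101 was close to that in siControl, and no member moved by more than 5 places.

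**Figure D1:**
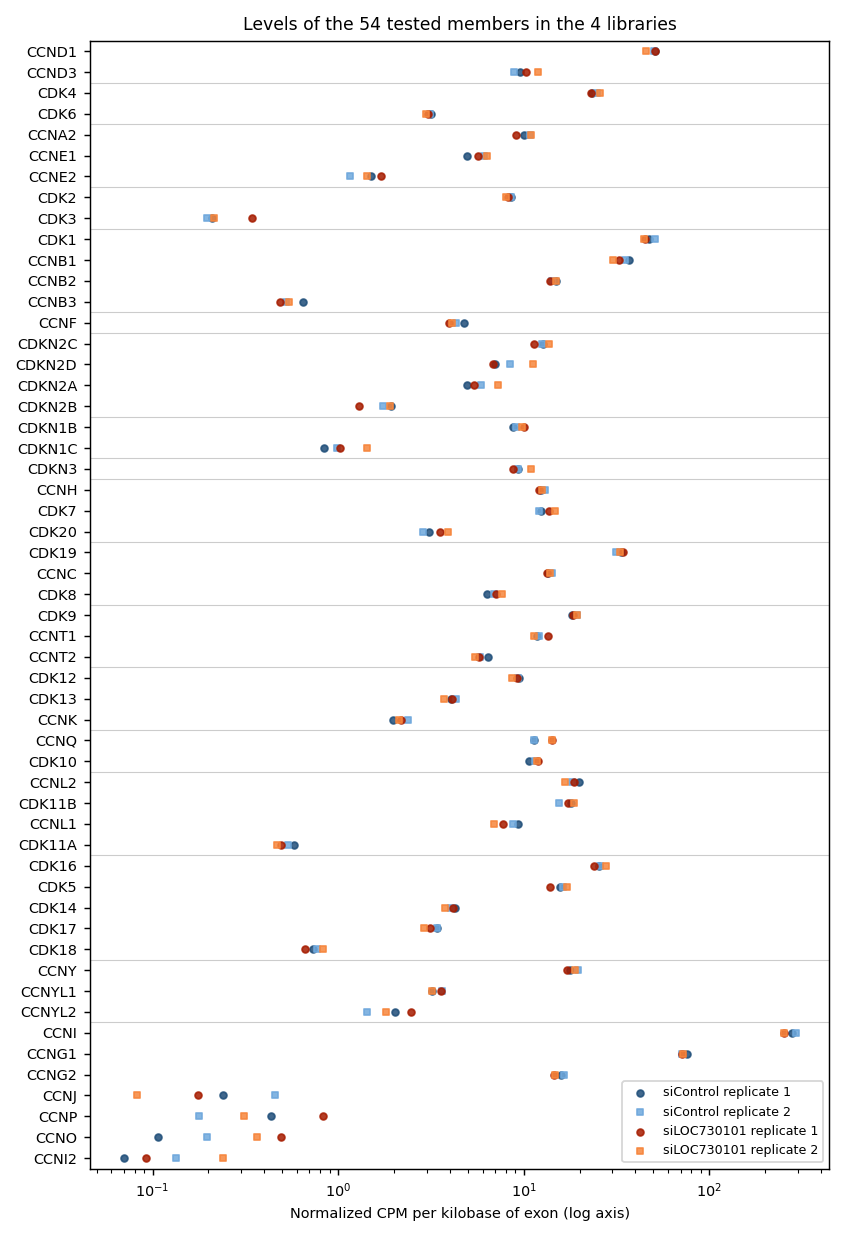
Normalized CPM per kilobase of exon (log axis) of the 54 tested members, grouped by role, with 1 point for each of the 2 siControl and 2 siLOC730101 libraries. Single libraries span from 0.0698 (CCNI2) to 292 (CCNI) per kilobase, and the points of the 2 groups lie close together for all but the members near the lower end.

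Some of these levels depend on how overlapping genes were counted. Reads were counted without a strand option, and reads that overlap the exons of 2 genes were not assigned. Exon sequence shared with another gene made up more than 30% of the exon length in 6 tested members. The shares were 91.4% in CDK3, which lies within the readthrough gene TEN1-CDK3, 59.5% in CCNK, 48.1% in CDK11A, 44.2% in CDK4, whose exons overlap TSPAN31 on the opposite strand, 37.1% in CCNE2 and 36.2% in CCNI2. Per kilobase of unshared exon, an alternative added after the data were seen, the siControl mean of CDK4 was 43.1 in place of 24.1, which placed it 5th in place of 8th, and that of CDK3 was 2.36 in place of 0.203. CDK11A and CDK11B are near-identical copies, and their separate values are uncertain.

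No member passed an adjusted p of 0.05 in edgeR's quasi-likelihood test of siLOC730101 against siControl, and none did in DESeq2. The lowest adjusted p of a member was 0.200 (edgeR, Benjamini-Hochberg over 19349 genes), against a background of 55 genes called, 0.284% of those tested. At an unadjusted p under 0.05 there were 3 members higher, against 6.43% of all genes, and 4 members lower, against 4.39%. The median log2 fold change was -0.019 over the members and -0.0021 over all genes tested. The median of the members was 0.013 without siControl replicate 2 and 0.038 without siLOC730101 replicate 1, so that its sign depended on single libraries. Cyclins lay below 0 in 18 of 27 tested, kinases in 10 of 20, and inhibitors in 2 of 7, against 50.4% of all genes tested. The median of the INK4 inhibitors, 0.10, was -0.17 without siLOC730101 replicate 2.

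Both siLOC730101 libraries lay above both siControl libraries in 10 members (18.5%, against 21.3% of all genes tested) and below them in 13 members (24.1%, against 20.5%). The members that lay above were CCND3, CCNQ, CDK20, CDK7, CDK8, CDK10, CDK3, CCNO, CDKN1B and CDKN1C. Those that lay below were CCNL1, CCNI, CCNB1, CDK1, CCNF, CCNJ, CDK6, CDK2, CDK12, CDK11A, CDK17, CCNT2 and CCNG2. Both shares were close to the background.

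The intervals show how large a change the spread between these 4 libraries allows, and that spread may be technical. For 41 of the 54 tested members the 95% interval of the change lay within 1.5-fold in both directions, and for 13 it reached further. Among the 49 members with a mean normalized count above 50, log2 fold changes ran from -0.30 to 0.43. The other 5, CCNO, CCNI2, CCNJ, CDK3 and CCNP, had few counts and wide intervals.

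**Figure D2:**
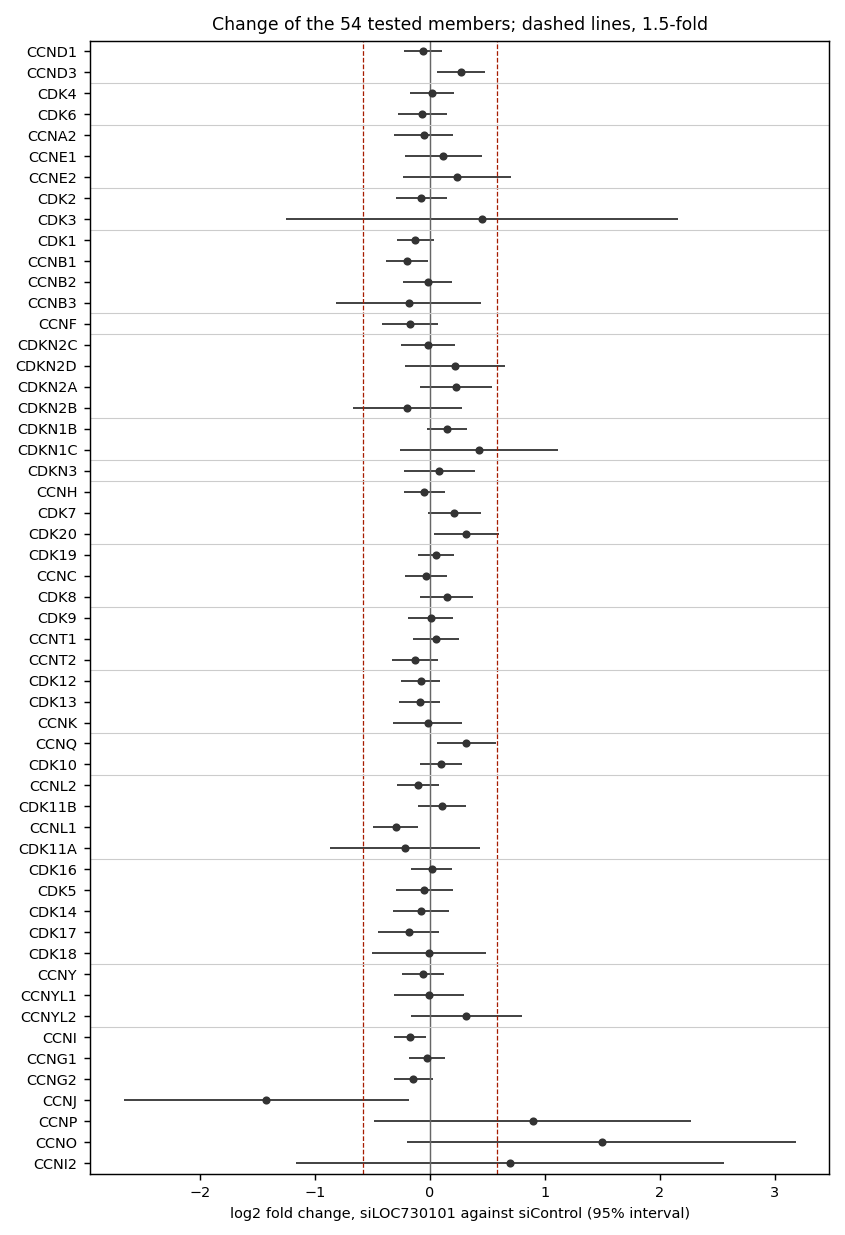
Log2 fold change of siLOC730101 against siControl for the 54 tested members, grouped by role, with bars for the 95% interval from the edgeR fit and dashed lines at 1.5-fold. Most intervals cross 0, and 41 lie between the dashed lines.

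The D-type cyclins and their kinases stand at the entry to the cell cycle. CCND1, on chromosome 11 from 69641156 to 69654474 (hg38), had 241.5 and 239.9 normalized CPM in siControl and 243.2 and 217.7 in siLOC730101. CCND3, the D-type cyclin on chromosome 6, had 54.8 and 50.9 in siControl and 59.3 and 68.4 in siLOC730101. Both siLOC730101 libraries of CCND3 were above both siControl libraries, while those of CCND1 lay on both sides. The log2 fold change of CCND3 was 0.27 (standard error, SE, 0.098, edgeR adjusted p = 0.287). Without siLOC730101 replicate 1, which left a lone library assumed to vary like siControl, it was 0.38 with an edgeR adjusted p of 0.0112, the lowest of the alternatives, of which the highest gave 0.806. In that fit 5.56% of all genes tested were called, and 2 of 54 members were. CCND2, the remaining D-type cyclin, had 6, 0, 4 and 0 counts and was not tested.

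Per kilobase, CCND3 made up 15.8% and 14.9% of the D-type cyclin signal in siControl and 16.8% and 20.6% in siLOC730101. The 2 groups did not overlap. The exact two-sided permutation p was therefore the smallest that 2 against 2 libraries can give, which is above 0.05. This outcome was common among the shares compared. CCND1 gave the same p, as did CCNB2 among CCNA2 and the B-type cyclins, and CDKN2A and CDKN2B among the INK4 inhibitors. CDK11A with CDK11B, CCNT1 with CCNT2, and CCNL1 with CCNL2, each compared as a pair, gave it as well. CDK4 made up 88.0% and 88.8% of the signal of CDK4 and CDK6 in siControl and 88.4% and 89.6% in siLOC730101, so that these groups overlapped (exact permutation p = 0.667). CDK4, on chromosome 12 from 57747727 to 57756013, had 72.2 and 76.8 normalized CPM in siControl and 71.7 and 79.4 in siLOC730101. CDK6, on chromosome 7 from 92604921 to 92836573, had 38.9 and 38.2 in siControl and 37.2 and 36.5 in siLOC730101, lower in both. The 95% interval of the CDK6 log2 fold change ran from -0.28 to 0.15, and that of CDK4 from -0.17 to 0.21.

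The E-type and A-type cyclins with CDK2 act at the start of DNA replication. CCNE1 had 12.19 and 14.998 normalized CPM in siControl and 13.9 and 15.5 in siLOC730101, and CCNE2 had 6.60 and 5.085 against 7.497 and 6.27. CCNA2, the cyclin A of dividing cells, had 27.7 and 29.5 in siControl and 25.05 and 30.1 in siLOC730101. In each of these 3 cyclins the groups overlapped. CDK2 had 33.2 and 33.4 in siControl and 31.8 and 31.3 in siLOC730101, below both siControl values, with a log2 fold change of -0.075 (SE 0.11, edgeR adjusted p = 0.872). CCNA1, the cyclin A of the germ line, had 2 counts in 1 siControl library and 0 in the others and was not tested.

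The B-type cyclins and CDK1, which carry the cell through mitosis, had log2 fold changes below 0 in 4 of 4 members, against 50.4% of all genes tested. Their median was -0.16, and none passed the adjusted threshold. CCNB3, the least expressed of them, had 2.63 to 3.51 normalized CPM in the 4 libraries, and its groups overlapped. Its log2 fold change was -0.18 (SE 0.30, edgeR adjusted p = 0.893). CCNB1, on chromosome 5 from 69167135 to 69178245, had 89.9 and 85.4 normalized CPM in siControl and 79.1 and 73.6 in siLOC730101. CDK1, on chromosome 10 from 60778331 to 60794852, had 185.8 and 198.5 in siControl and 176.8 and 174.6 in siLOC730101. Both genes lay lower in both siLOC730101 libraries. The log2 fold change of CCNB1 was -0.20 (SE 0.085, edgeR adjusted p = 0.404) and that of CDK1 was -0.13 (SE 0.075, edgeR adjusted p = 0.580).

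CCNB2, the second mitotic B-type cyclin, had 40.8 and 39.2 normalized CPM in siControl and 38.0 and 40.9 in siLOC730101, so that the groups overlapped. Its log2 fold change was -0.020 (95% interval from -0.23 to 0.19), and it was 0.041 without siLOC730101 replicate 1 and 0.011 without siControl replicate 1. The group median was -0.088 without siControl replicate 1. CCNF, the F-box cyclin that marks proteins for degradation in G2 phase, had 29.97 and 27.2 in siControl and 24.9 and 25.8 in siLOC730101, with a log2 fold change of -0.17 (SE 0.12, edgeR adjusted p = 0.638). CCNB1 took 59.1% and 57.9% of the summed per-kilobase signal of CCNA2 and the B-type cyclins in siControl and 58.1% and 53.4% in siLOC730101 (exact permutation p = 0.667).

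A list of 8 other genes of proliferating cells, MKI67, TOP2A, PCNA, MCM2, TYMS, AURKB, PLK1 and BUB1, was examined beside these values. None of the 8 passed the adjusted threshold in edgeR. All 8 had log2 fold changes below 0, 7 of 8 lay lower in both siLOC730101 libraries (against 20.5% of all genes tested), and 3 were lower at an unadjusted p under 0.05 (against 4.39%). Their summed normalized CPM was 553 to 563 in siControl and 473 to 483 in siLOC730101. The part of this difference in the values of CCNB1 and CDK1 was not tested. In bulk RNA, fewer cells in a cell cycle phase and less RNA per cell cannot be told apart.

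**Figure D3:**
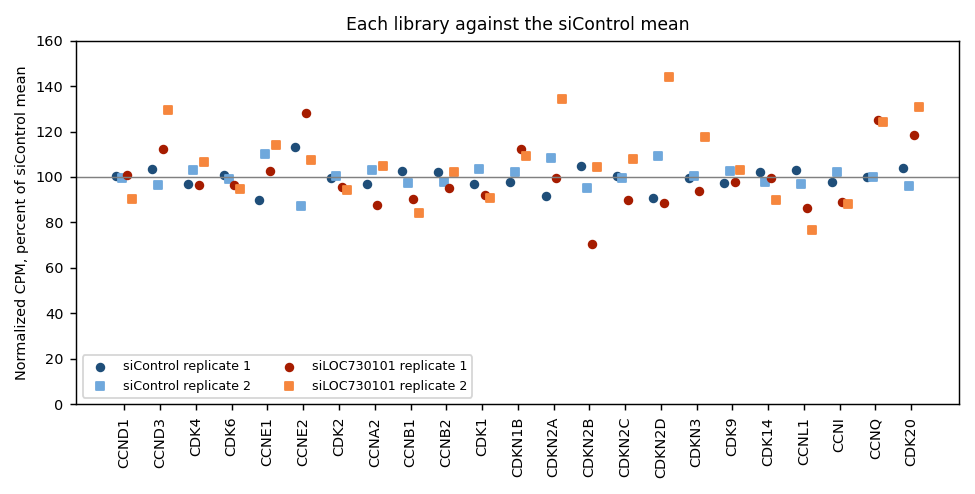
Normalized CPM of each library as a percent of the siControl mean, for the core cell cycle members except CCND2, and for CDK9, CDK14, CCNL1, CCNI, CCNQ and CDK20. CCNB1, CDK1, CCNL1 and CCNI lie below 100% in both siLOC730101 libraries, and CCND3, CCNQ, CDK20 and CDKN1B lie above it.

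The inhibitors showed no member past the threshold. CDKN1B, which encodes the CIP/KIP inhibitor p27, is on chromosome 12 from 12685498 to 12722369. It had 81.0 and 84.6 normalized CPM in siControl and 93.0 and 90.6 in siLOC730101, higher in both, with a log2 fold change of 0.15 (SE 0.082, edgeR adjusted p = 0.549). CDKN1C, the related inhibitor p57, had 2.07 and 2.44 in siControl and 2.53 and 3.53 in siLOC730101, also higher in both. Its log2 fold change of 0.43, the highest among members with a mean normalized count above 50, had a standard error of 0.32 and an adjusted p of 0.698 in edgeR, and leaving out siLOC730101 replicate 2 gave 0.17 and leaving out replicate 1 of that group gave 0.66. Per kilobase, the ratio of CDKN1B to CDK2, one of the kinases that p27 binds, was 1.02 and 1.06 in siControl. In siLOC730101 it was 1.23 and 1.21. This ratio was not tested, and neither gene passed the adjusted threshold. Of the other ratios computed, CCND1/CCND3 and CCNB1/CCNB2 also separated the groups. Those of CDK4/CDK6, CCNB1/CDK1, CDK19/CDK8 and CDK9/CCNT1 overlapped between the groups. Separation of 2 against 2 libraries is common. Among single genes tested, 21.3% lay higher and 20.5% lower in both siLOC730101 libraries.

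All 4 INK4 genes were detected. Per kilobase, CDKN2C, which encodes p18, took the largest share of their sum, with 47.8% and 43.98% in siControl and 45.7% and 40.2% in siLOC730101. CDKN2D, which encodes p19, had 10.6 and 12.7 normalized CPM in siControl and 10.3 and 16.8 in siLOC730101. The value of 16.8 in siLOC730101 replicate 2 stood apart from the other 3, and the log2 fold change of 0.22 was -0.18 without that library. CDKN2A had 19.2 and 22.7 in siControl and 20.9 and 28.2 in siLOC730101, and CDKN2B had 7.66 and 6.94 against 5.16 and 7.61, so that the groups overlapped in both genes. CDKN2A encodes both p16 and ARF, which a count per gene does not separate, and 15.3% of its exon length overlaps CDKN2B-AS1 on the opposite strand. CDKN2C had 38.4 and 38.0 in siControl and 34.3 and 41.2 in siLOC730101. CDKN3, a phosphatase that removes the activating phosphate from CDK2, had 16.9 and 17.1 in siControl and 15.9 and 20.04 in siLOC730101.

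**Figure D4:**
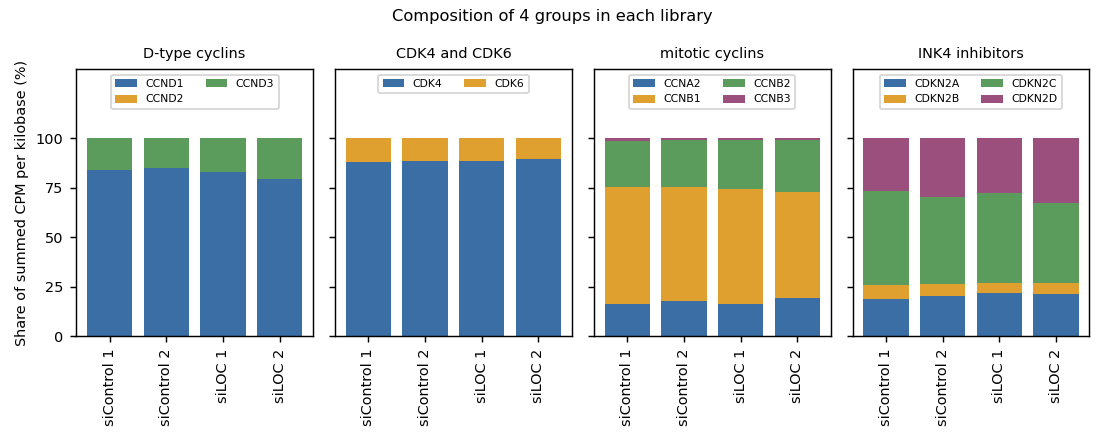
Share of the summed normalized CPM per kilobase (%) taken by each member of the D-type cyclins, CDK4 with CDK6, the mitotic cyclins and the INK4 inhibitors, with 1 bar for each library. CCND1, CDK4, CCNB1 and CDKN2C take the largest share of their group in all 4 libraries, and the share of CCND3 is highest in siLOC730101 replicate 2, at 20.6%.

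In the CDK-activating kinase, CDK7 with cyclin H phosphorylates other CDKs and RNA polymerase II. CDK7 had 29.97 and 29.2 normalized CPM in siControl and 33.1 and 35.6 in siLOC730101, higher in both, with a log2 fold change of 0.21 (SE 0.11, edgeR adjusted p = 0.505). Its partner CCNH had 74.4 and 77.7 against 72.5 and 74.7, and the groups overlapped. CDK20, a CDK7-related kinase, had 17.8 and 16.4 in siControl and 20.3 and 22.4 in siLOC730101, with a log2 fold change of 0.32 (SE 0.13, edgeR adjusted p = 0.373).

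None of the kinases and cyclins of the Mediator complex and of transcript elongation passed the adjusted threshold. In the Mediator kinase module, CDK19 stood above its paralog CDK8 per kilobase, with 84.0% and 81.9% of their sum in siControl and 82.8% and 81.2% in siLOC730101. CDK8 had 30.1 and 33.0 normalized CPM in siControl and 33.6 and 36.2 in siLOC730101, higher in both, with a log2 fold change of 0.15 (SE 0.11, edgeR adjusted p = 0.693). CDK9, the kinase of P-TEFb that releases paused RNA polymerase II, had 54.8 and 57.9 in siControl and 55.2 and 58.1 in siLOC730101, with a 95% interval of the log2 fold change from -0.19 to 0.20. Its cyclins CCNT1 and CCNT2 had log2 fold changes of 0.054 and -0.13. CDK12, CDK13 and cyclin K, which act together in elongation, had log2 fold changes from -0.090 to -0.021.

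The lowest p-value of all members was that of CCNL1, an L-type cyclin that binds CDK11 and takes part in splicing, on chromosome 3 from 157146508 to 157160760. It had 80.8 and 76.2 normalized CPM in siControl and 67.8 and 60.2 in siLOC730101, lower in both. The log2 fold change was -0.30 (SE 0.092, edgeR adjusted p = 0.200). Without siLOC730101 replicate 1 it was -0.38 with an edgeR adjusted p of 0.00705, and the alternative with the highest adjusted p gave 0.576. Its paralog CCNL2 had 136.0 and 124.1 in siControl and 127.2 and 114.7 in siLOC730101, so that those groups overlapped. Per kilobase, CCNL1 took 31.8% and 32.5% of the sum of the L-type cyclins in siControl and 29.5% and 29.1% in siLOC730101. The exact permutation p was again the smallest possible, as for every share whose groups did not overlap. CDK11B had a log2 fold change of 0.10, and CDK11A, with 2.37 to 2.94 normalized CPM in the 4 libraries, had -0.22 (SE 0.31).

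CCNQ, the cyclin that activates CDK10, is on chromosome X from 153587925 to 153600045. It had 19.1 and 19.1 normalized CPM in siControl and 23.9 and 23.7 in siLOC730101, with a log2 fold change of 0.32 (SE 0.12, edgeR adjusted p = 0.317). The libraries of each group were closer to each other than the groups were. CDK10 itself had 72.2 and 78.3 in siControl and 80.7 and 79.8 in siLOC730101, also higher in both, with a log2 fold change of 0.094 (SE 0.086, edgeR adjusted p = 0.768).

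Among the kinases related to CDK5, which act mostly outside the cell cycle, 5 of 6 were tested. Of these, 4 had log2 fold changes below 0, against 50.4% of all genes tested. The group median was -0.048, and it was 0.11 without siLOC730101 replicate 1. CDK14, a kinase that works with cyclin Y in Wnt signalling, had 29.8 and 28.6 normalized CPM in siControl and 29.1 and 26.3 in siLOC730101, and the groups overlapped. CDK16, the most abundant of them per kilobase, had 165.2 and 168.4 against 156.1 and 180.9. CDK15 had 2 counts in 1 siLOC730101 library and 0 in the others. CCNY and CCNYL1, the Y-type cyclins, had log2 fold changes of -0.058 and -0.0066, and CCNYL2, a pseudogene that passed the filter, had 0.32 (SE 0.23).

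Of the remaining cyclins, CCNI had 1132 and 1184 normalized CPM in siControl and 1029 and 1021 in siLOC730101, lower in both. Its log2 fold change of -0.18 had the smallest standard error of the members, 0.066, and an adjusted p of 0.306 in edgeR. CCNG2, a cyclin that rises in cells leaving the cycle, had 117.8 and 122.4 in siControl and 108.0 and 109.2 in siLOC730101, and CCNG1 had a log2 fold change of -0.026. CCNJ, a cyclin with few reads here, had 54 and 89 counts in siControl against 30 and 13 in siLOC730101. Its log2 fold change of -1.42 had a standard error of 0.58 and an adjusted p of 0.370 in edgeR. CCNO, which is known from multiciliated cells, had 10 and 16 counts in siControl and 35 and 24 in siLOC730101. The log2 fold change of CCNO, 1.49, had a standard error of 0.79 and an adjusted p of 0.534 in edgeR.

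The 15 members that were not tested had at most 12 counts in any library. Of these, 9 were at 0 in all 4 libraries, and 6 had counts in at least 1 of them. CCND2, CCNA1, CDK15 and CCNJL are protein-coding genes and the other 2, CCNJP2 and CCNYL7, are pseudogenes. For a gene at 0, the limit that 3 counts set was 0.0562 to 0.0765 CPM across the libraries, which covers counting error only.

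Members with a miR-1-3p match were compared with the rest. The 9 members with a match of 7 or 8 bases had a median log2 fold change of -0.063, with 6 of 9 below 0, and the 44 without had a median of -0.012, with 24 of 44 below 0. Over all genes searched, the median was -0.0093 with a match, with 1568 of 2995 below 0. Without a match it was 0.025, with 4695 of 10543 below 0. The difference between these medians was not tested. None of the 9 members passed an adjusted p of 0.05 in edgeR, against 0.284% of all genes tested. None had an unadjusted p under 0.05, against 10.8%. The 3′ UTRs with a match were longer, with a median of 3084 nucleotides against 1004.5 without.

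**Figure D5:**
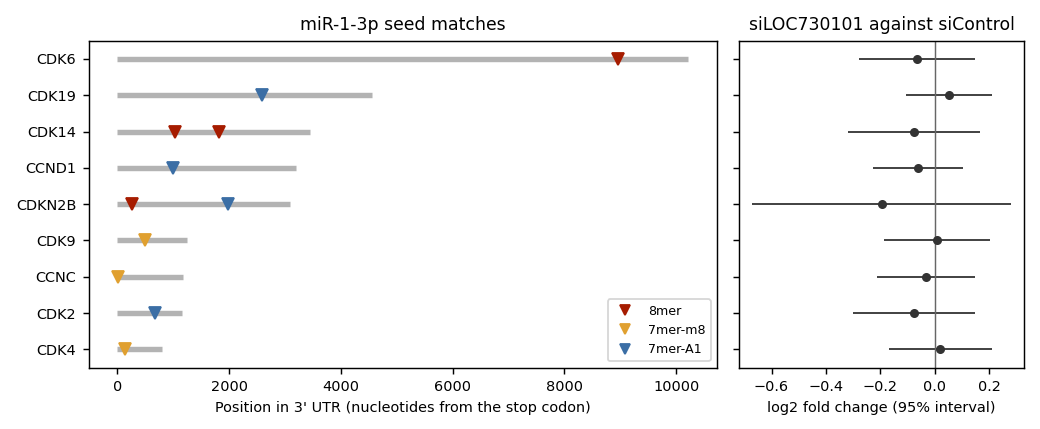
Position of each miR-1-3p match in the 3′ UTR of the 9 members that hold one (left, nucleotides from the stop codon, grey bars for the length of the 3′ UTR) and their log2 fold changes with 95% intervals (right). All 9 intervals include 0, and the 8mers of CDK14, CDKN2B and CDK6 sit at different distances from the stop codon.

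Other genes that act on the members were taken from a list of 34 partners, activators, phosphatases and ubiquitin ligases, of which 33 were tested. None passed an adjusted p of 0.05 in edgeR or DESeq2, 3 had an unadjusted p under 0.05 (9.09%, against 10.8% of all genes tested), and log2 fold changes were above 0 in 20 and below 0 in 13, with a median of 0.061. MED13L, a subunit that joins the CDK8 module to Mediator, had 83.9 and 82.9 normalized CPM in siControl and 73.5 and 68.8 in siLOC730101 (log2 fold change -0.23, adjusted p = 0.302, edgeR). CDK2AP1, which binds CDK2, had 103.7 and 110.03 in siControl and 121.2 and 122.0 in siLOC730101 (0.19, adjusted p = 0.404, edgeR). FBXO5, the inhibitor EMI1 of the anaphase-promoting complex, had 21.7 and 22.2 in siControl and 19.3 and 16.3 in siLOC730101 (-0.30, adjusted p = 0.425, edgeR). Without siLOC730101 replicate 1, which left 1 library in that group, the log2 fold change of CDK2AP2 was 0.38 in place of 0.20. That of CDC37, a co-chaperone of CDK4, was 0.26 in place of 0.16. In the library left out, CDK2AP2 had 124.1 normalized CPM, between its siControl values of 119.2 and 125.0.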

How the data were processed

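RNA sequencing counts of 4 libraries were used as the authors deposited them, in 1 table of raw counts per gene without normalization. Per the file headers, reads were counted on genes with featureCounts 2.0.1 with hg38 and gencode 41, with no strand or paired-end option, whereas the methods of the study name STAR with hg19. The deposited table also gives exon lengths, which were used as a unit of their own. Even values made up 66.0% to 70.1% of the values from 1 to 20 in each library, so that counts may exceed the number of sequenced fragments.

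The test was run with edgeR 4.0.16 in R 4.3.3 (filterByExpr, TMM, glmQLFit and glmQLFTest at package defaults, condition only) over 19349 genes, with Benjamini-Hochberg adjustment and a threshold of 0.05. The biological coefficient of variation was 0.147. Intervals are 95% intervals from the fitted coefficient. DESeq2 1.42.0, other scalings and filters, the replicate number as a block, halved counts and each library left out were alternatives. The scripts were tested on simulated data. Shares were compared by exact permutation in scipy 1.17.1. Promoter and microRNA sequences came from RefSeq (GRCh38.p14). The deposited table held 0 rows without a gene name.

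The members and lists were chosen with earlier results of these data known. Values by library were given for the core cell cycle members, the kinases that the study discusses, the 5 members with the lowest p, and the 3 highest and 3 lowest log2 fold changes with a mean normalized count above 50. Other members described by library (CDK7, CCNH, CDK8, CDK10, CDK16, CCNF, CCNL2, CCNG2 and CCNO) were chosen after their values were seen. Kinase protein sequences were not analysed here. Results for 3 marker genes are not reported here.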

Additional observations from a re-analysis of the deposited data

How the results depend on the processing

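With 2 libraries in each group, leaving 1 out leaves a lone sample that is assumed to vary like the other group. The number of members called higher was 0, and 0 to 1 without any one library, and the number called lower was 0, and 0 to 1. Both calls came without siLOC730101 replicate 1 (CCND3 and CCNL1), where the regulators called rose from 0 to 2 (range 0 to 2). With the replicate block, 1 member was called lower (CCNL1, log2 fold change -0.30, adjusted p = 0.0309, edgeR) and 485 genes higher and 167 lower among all genes. The replicate numbers do not pair libraries by the labels, and the correlation of same-numbered deviations was 0.0152. Over all genes tested, 41 were called higher and 14 lower in the main analysis. These counts were 324 and 113 with no filter beyond 1 count, 103 and 37 with at least 1 CPM in 2 libraries, 233 and 64 with DESeq2, 87 and 24 with the legacy method off, 113 and 35 with halved counts, and 35 lower with library size only. They ranged from 77 to 923 higher and from 26 to 272 lower without any one library. Members whose groups do not overlap numbered 17 to 24 higher and 18 to 27 lower without any one library, since 1 library against 2 overlaps less often by construction. The direction of CDK4 reversed to -0.011 with upper-quartile factors and -0.018 with library size only, and that of CDK9 to -0.024 and -0.030 with those scalings and to -0.0072 with the CPM filter. These 2 scalings moved the median of all genes to -0.033 and -0.039. Without any one library, log2 fold changes changed sign in CCND1 (-0.14 to 0.012), CDK4 (-0.057 to 0.10), CCNE1 (-0.026 to 0.27), CCNA2 (-0.19 to 0.080), CCNB2 (-0.076 to 0.041), CDKN2A (-0.0073 to 0.44), CDKN2B (-0.50 to 0.069), CDKN2C (-0.16 to 0.12), CDKN2D (-0.18 to 0.54), CDKN3 (-0.097 to 0.25) and CDK9 (-0.032 to 0.053). The cause was not tested. Of 406 gene values under 14 alternatives, 384 kept their direction and their side of the threshold.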
